A study of Mus musculus with 11 samples.

Results

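Perivascular macrophages (PVMs) of the mouse brain were examined among cells isolated from cerebral microvessels of CADASIL and control mice. Barcodes were kept when 500 or more genes were detected and mitochondrial transcripts were no more than 10% of the UMIs (unique molecular identifiers, each marking 1 captured transcript). A kept barcode was taken as a PVM on 4 conditions. Its UMIs of Mrc1, Cd163, Pf4, Lyve1 and F13a1 had to sum to at least 5. At least 3 of these 5 genes had to be detected, the endothelial genes Cldn5 and Flt1 could sum to at most 3 UMIs, and the microglial gene P2ry12 could have at most 1. This gate held 120 of 61625 kept cells, out of 66658 deposited barcodes. For comparison, microglia were taken as cells with at least 4 UMIs of P2ry12 and Cx3cr1 and none of Mrc1 and Cd163, which gave 13940 cells. The PVMs were therefore chosen by measured transcripts, and their difference from microglia is given as a description with no test.

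The study isolated microvascular fragments from digested brains with magnetic beads that bind CD31 on the surface of endothelium, and dispersed them into single cells. It made 1 droplet library per mouse from 6 R182C-TgN3 mice and 5 WT-TgN3 mice, all untreated. Human NOTCH3 was present as a transgene in every mouse, as the R182C variant of CADASIL patients in R182C-TgN3 (CADASIL) mice and as the wild-type receptor in WT-TgN3 (control) mice, so no mouse here lacked the transgene. NOTCH3 is a receptor of mural cells, and CADASIL is the small vessel disease that its variants cause. R182C-TgN3 1 and 3 were females of 9 months, R182C-TgN3 2 was a male of 9 months, R182C-TgN3 4 was a male of 6 months, and R182C-TgN3 5 and 6 were females of 6 months. WT-TgN3 1 and 3 were females of 6 months, WT-TgN3 2 was a male of 6 months, WT-TgN3 4 was a male of 9 months and WT-TgN3 5 was a female of 9 months. The labels name 4 batches by date. Batch 1 held R182C-TgN3 1 and 2 with WT-TgN3 4 and 5, batch 2 held R182C-TgN3 3 alone, batch 3 held R182C-TgN3 4 and 5 with WT-TgN3 1 and 2, and batch 4 held R182C-TgN3 6 with WT-TgN3 3. All mice of a batch were of the same age, so age and batch cannot be told apart.

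PVMs are long-lived macrophages that lie between the vessel wall and the outer border of the brain tissue. They take up proteins, lipids and debris from the fluid around vessels through scavenger receptors, and some of them present antigen on MHC class II molecules. Macrophages of the meninges and the choroid plexus carry the same markers, and dissociated cells keep no position, so these cells cannot be told apart here. Microglia are the macrophages of the brain tissue itself and differ from PVMs in the factors that keep their identity, among them SALL1.

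PVMs with and without MHC class II transcripts are described below, and the promoters of class II genes share known control elements. One of these is the Y box, an inverted CCAAT element bound by NF-Y, whose core was searched for as TGATTGG on both strands in the 150 bases before the gene start. The promoters of H2-Aa and H2-Eb1, which encode chains of the antigen-presenting class II molecules, are shown 5′ to 3′ from RefSeq on GRCm38.p6, because their transcripts were among those that divided the PVMs. The motif is in capitals.
H2-Aa, chr17:34287824-34287973, minus strand: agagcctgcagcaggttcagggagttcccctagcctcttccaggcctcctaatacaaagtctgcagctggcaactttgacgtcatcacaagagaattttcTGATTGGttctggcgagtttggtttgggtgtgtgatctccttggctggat
H2-Eb1, chr17:34305717-34305866, plus strand: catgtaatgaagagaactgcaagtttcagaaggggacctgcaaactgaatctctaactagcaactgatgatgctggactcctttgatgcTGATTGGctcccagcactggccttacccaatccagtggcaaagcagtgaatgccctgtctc
The motif started 50 bases before the start of H2-Aa and 61 bases before that of H2-Eb1. Of the 10 class II genes listed, 7 had a promoter entry and 6 of those 7 held the motif, against 1877 of 32851 promoters (5.71%) overall. These matches describe the letters of the promoters and say nothing of binding in these cells.

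The 120 PVMs came from all 11 mice, with 20, 15, 12, 6, 5 and 9 cells from R182C-TgN3 1 to 6 and 5, 17, 11, 12 and 8 cells from WT-TgN3 1 to 5. The libraries held from 17550806 to 64215050 UMIs. A PVM had a median of 3996 UMIs (887 to 15784), 1780 genes and 2.74% mitochondrial UMIs. Summed per mouse, the PVMs held between 11305 and 91831 UMIs, at which 3 UMIs correspond to 265 and 32.7 CPM (UMIs scaled to the same total for every sum), so that a gene below these levels can be missed in a mouse. Of 60738 distinct barcodes among kept cells, 666 occurred in more than 1 library, and none of them belonged to a PVM. Sex-linked transcripts fitted the labelled sex in 11 of 11 mice. Doublet scoring marked 6 of the 120 PVMs and 3279 of all 61625 kept cells. The number of cells marked in each library was set beforehand from the size of the library.

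Each gate gene is known for a role in these cells. Mrc1 (chromosome 2, 14229392 to 14332057, mm10) encodes the mannose receptor CD206, and 118 of 120 PVMs (98.3%) held a UMI of it. Pf4, a platelet chemokine gene also expressed by border macrophages (chromosome 5, 90772435 to 90773383), was likewise found in 118 PVMs. F13a1, which encodes a subunit of clotting factor XIII (chromosome 13, 36867178 to 37050244), was found in 112 (93.3%). Cd163, the receptor for haemoglobin bound to haptoglobin (chromosome 6, 124304656 to 124330527), was found in 66 (55.0%). Lyve1, a hyaluronan receptor (chromosome 7, 110850607 to 110863239), was found in 16 (13.3%). At an equal depth of 2000 UMIs, 6.93% of 101 PVMs held Lyve1. Across the 11 mice Mrc1 ranged from 1501 to 2742 CPM, with a median of 2134, and Lyve1 from 0 to 210 CPM, with a median of 62.7. All 5 gate genes together were detected in 10 cells, 4 of them in 50 cells and 3 of them in 60 cells. Lyve1 was thus the gate gene that most PVMs lacked.

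Most of the cells just outside the gate had too much P2ry12 or too few markers. The marker sum was 5 or 6 in 11 PVMs, and 5 cells failed the gate only with a sum of 3 or 4. No cell failed only with 4 to 6 endothelial UMIs, and 15 failed with more than 6. P2ry12 had 1 UMI in 41 PVMs, and another 41 cells failed only because they had 2 or 3. These last cells carried 33424 CPM of Apoe and 55.4 CPM of Tmem119, a microglial gene, compared with 36506 CPM and 5.98 CPM in the 79 PVMs with no P2ry12. A further 44 cells failed only because 2 of the 5 markers were detected, and these held 18449 CPM of Apoe. Of those 44 cells 32 (72.7%) had at least 3 MHC class II UMIs without thinning, compared with 48.1% of the 79 PVMs without P2ry12 and 39.0% of the 41 with 1 UMI of it. The need for 3 markers therefore left out cells of which most carried class II transcripts, and the class II shares below hold for the gated cells alone.

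Most marker lists of other cell types were low in the PVMs, but the fibroblast, monocyte and dendritic cell lists had higher medians than in microglia. Of the 8 endothelial markers listed, Cldn5 and Flt1 were limited by the gate itself. Over the 11 mice the other 6 summed to a median of 37.0 CPM (0 to 211), compared with 651 CPM in microglia and 6884 CPM in gated endothelial cells. All 8 together had a median of 87.1 CPM in PVMs (0 to 395). The 8 mural markers summed to a median of 88.5 CPM (0 to 1399), against 131 CPM in microglia and 504 CPM in endothelial cells. The value of 1399 CPM belonged to a CADASIL mouse, R182C-TgN3 4, and no control mouse was above 157 CPM. The 6 fibroblast markers summed to 30.7 CPM (0 to 218), against 3.95 CPM in microglia and 9.08 CPM in endothelial cells, with Col3a1 at 0. Choroid plexus epithelial markers summed to 162 CPM (12.3 to 369), against 1314 CPM in microglia, and Folr1, Kl, Clic6 and Kcnj13 were at 0. Of 8 monocyte markers 3 were detected, with a summed median of 78.3 CPM (0 to 250), against 11.5 CPM in microglia. Ly6c2, Plac8, Chil3, S100a8 and S100a9 were at 0. Of 8 dendritic cell markers 2 were detected, with a summed median of 138 CPM (0 to 679), against 25.1 CPM in microglia and 103 CPM in endothelial cells. Flt3, Xcr1, Clec9a, Itgae, Ccr7 and Ffar2 were at 0. None of the 5 T cell markers was detected, and 2 of the 5 B cell markers gave a median of 132 CPM (62.7 to 265), against 148 CPM in microglia. The oligodendrocyte markers had a median of 49.4 CPM (0 to 177), and the astrocyte and erythroid markers had a median of 0. Ccr2 (57 UMIs) and Cd209a (93 UMIs) were the detected members of these lists that stood at least 2-fold above microglia in every mouse of the comparison below.

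The share of PVMs differed between CADASIL and control mice by far less than it varied among mice of a genotype. PVMs made up 0.202%, 0.362%, 0.179%, 0.125%, 0.168% and 0.158% of the kept cells in R182C-TgN3 1 to 6. In WT-TgN3 1 to 5 they made up 0.114%, 0.292%, 0.175%, 0.301% and 0.116%. The means were 0.199% ± 0.0838 (SD, n = 6) and 0.200% ± 0.0920 (SD, n = 5), and the ranges overlapped almost entirely. The difference did not pass a two-sided exact permutation test (R182C-TgN3 minus WT-TgN3 -0.00068 percentage points, p = 0.994, smallest possible p = 0.00216). Among the 10 mice of batches with both genotypes, permuted inside each batch, it was 0.00331 points (exact permutation p = 0.972). The counts behind these shares are small, and the 95% exact interval of R182C-TgN3 2, the mouse with the highest share, reached from 0.203% to 0.596%. Such intervals cover counting error only.

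**Figure D1:**
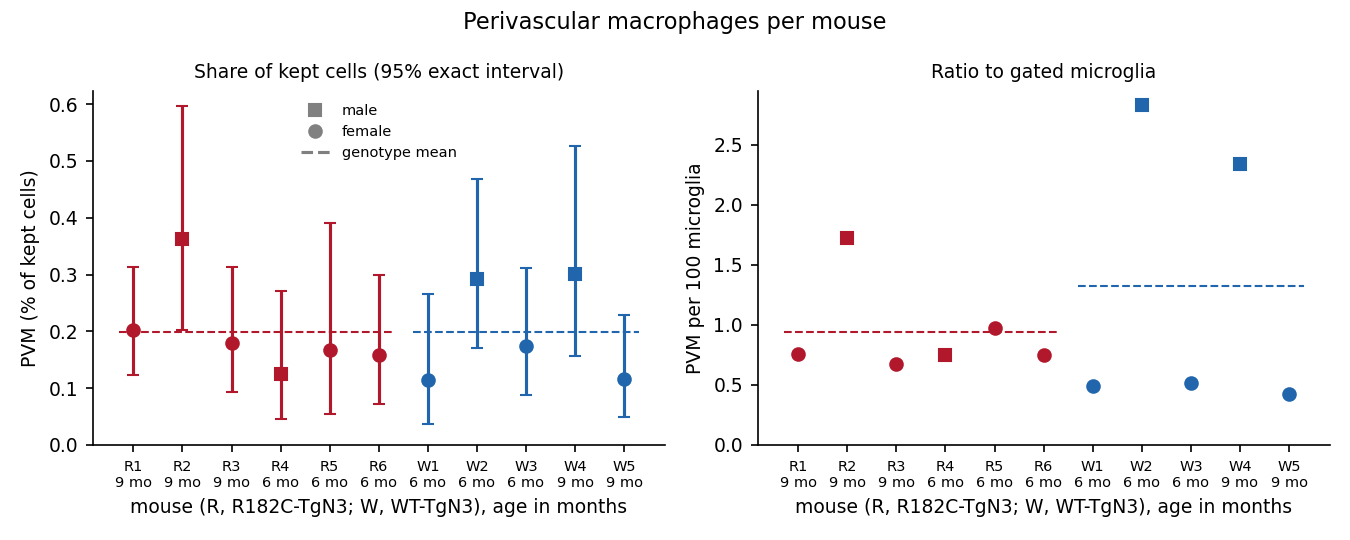
Left, PVMs as a percentage of kept cells in each of the 11 mice with 95% exact binomial intervals; right, PVMs per 100 gated microglia. R and W stand for R182C-TgN3 and WT-TgN3, squares for males, circles for females, and dashed lines for the genotype means. R182C-TgN3 2 is the highest mouse on the left at 0.362% and WT-TgN3 2 the highest on the right at 2.83, and the genotypes overlap in both panels.

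For every 100 microglia, R182C-TgN3 1 to 6 held 0.758, 1.72, 0.678, 0.751, 0.973 and 0.753 PVMs, and WT-TgN3 1 to 5 held 0.489, 2.83, 0.514, 2.34 and 0.426. The control mice held both the highest and the lowest values. The means were 0.939 ± 0.397 (SD, n = 6) and 1.32 ± 1.17 (SD, n = 5), and the difference of -0.382 did not pass the test (exact permutation test, p = 0.457). At 9 months PVMs made up 0.232% ± 0.0985 (SD, n = 5) of kept cells and at 6 months 0.172% ± 0.0637 (SD, n = 6), a difference of 0.0601 points that did not pass the test (exact permutation test, p = 0.234).

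Male mice had the higher shares of PVMs, a comparison that was added after the values had been seen. The 4 males had 0.270% ± 0.102 (SD, range 0.125% to 0.362%) and the 7 females 0.159% ± 0.0329 (SD, range 0.114% to 0.202%). The 3 highest mice were males and the fourth male, R182C-TgN3 4, lay below 5 of the 7 females. The gap of 0.111 points had p = 0.0212 by exact permutation and p = 0.0636 after Benjamini-Hochberg adjustment over the comparisons of genotype, age and sex, so it did not pass. Without R182C-TgN3 2, WT-TgN3 2 or WT-TgN3 4 the exact permutation p was 0.0583, 0.05 and 0.0583. For the 8 mice of batches with both sexes it was 0.120 points (exact permutation p = 0.111 inside batches, where 0.0556 is the smallest possible). Per 100 microglia, males held 1.91 ± 0.898 PVMs (SD, n = 4) and females 0.656 ± 0.192 (SD, n = 7). That difference of 1.26 had an unadjusted p of 0.0121 (exact permutation test). The share of microglia moved the other way, with 15.2% ± 4.65 (SD, n = 4) of kept cells in males and 25.1% ± 5.30 (SD, n = 7) in females (difference -9.93 points, exact permutation test, unadjusted p = 0.0121). Its part in the PVM shares was not tested.

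The PVM share was set beside the shares of 3 other cell types over the 11 mice. With the share of fibroblasts (146 cells in all) Pearson's r was 0.380 (permutation p = 0.255) and Spearman's rho 0.0364 (permutation p = 0.925). With the share of choroid plexus epithelial cells (296 cells) r was -0.516 (permutation p = 0.0681) and rho -0.518 (permutation p = 0.106). With the share of microglia r was -0.434 (permutation p = 0.179) and rho -0.282 (permutation p = 0.402). After adjustment over the 3 relations the p-values of r were 0.255, 0.204 and 0.255, and those of rho were 0.925, 0.319 and 0.603, all by permutation. Leaving out the 2 mice farthest from the median of the other share gave r of 0.345, -0.248 and -0.336, and centring on batch means gave 0.333, -0.606 and -0.621 over 10 mice. None of these relations passed the test.

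Apoe, Lyz2, Wfdc17 and MHC class II genes stood far higher in PVMs than in microglia of the same mouse, and Tmem119 and Sall1 far lower. The description used the 6 mice with at least 10 PVMs (R182C-TgN3 1, 2 and 3, WT-TgN3 2, 3 and 4), CPM of cells summed per mouse, and log2 ratios with 10 CPM added to each side. Of 7066 genes with a mean of at least 20 CPM in either cell type, 124 (1.75%) were at least 2-fold higher in PVMs in every one of the 6 mice and 307 (4.34%) at least 2-fold lower. The median log2 ratio of all 7066 genes was -0.25. Endothelial genes were limited in the PVM gate but not in the microglial gate. Over the 11 mice Cldn5 had a median of 43.6 CPM in PVMs, 419 CPM in microglia and 4366 CPM in endothelial cells. The part of carried-over endothelial transcripts in the lower ratios was not tested. A gene with few UMIs in the smaller PVM sums can reach 2-fold lower by counting error. With microglia thinned to the depth of the PVM sums, 130 genes were higher and 230 lower in every mouse. With doublets removed the counts were 126 and 244. The counts also move with the amount added (206 genes in both directions together with 50 CPM, against 431).

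Apoe, the apolipoprotein that carries lipids in the brain (chromosome 7, 19696109 to 19699188), was among the genes farthest above microglia. In PVMs it was at 33509, 32440, 40309, 43071, 27386 and 48172 CPM in R182C-TgN3 1 to 6 and at 39717, 35003, 31515, 36616 and 42470 CPM in WT-TgN3 1 to 5. In microglia it ranged from 224 to 748 CPM, so every mouse had far more in its PVMs and the genotypes overlapped. The median log2 ratio was 5.73. At 2000 UMIs per cell Apoe was seen in all 101 PVMs of that depth, in 19.2% of 12851 microglia and in 64.9% of 29134 endothelial cells.

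Wfdc17, which encodes a small secreted protein of activated macrophages, had the highest log2 ratio of the genes compared, 6.66, with 132 to 2637 CPM in PVMs of the 11 mice and at most 13.5 CPM in microglia. Lyz2, the lysozyme gene of myeloid cells, had a log2 ratio of 5.04, with 4701 to 8525 CPM in PVMs and 148 to 249 CPM in microglia. Ms4a7, a membrane protein gene of border macrophages, had a log2 ratio of 5.46, with 272 to 1238 CPM in PVMs and at most 12.7 CPM in microglia. It was detected at 2000 UMIs in 60.4% of PVMs and 0.195% of microglia. These 3 genes were higher in PVMs in 11 of 11 mice.

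Several lectins and uptake receptors were among the other leading genes. Mgl2, a galactose-binding lectin gene, had a log2 ratio of 5.52, and Dab2, an endocytic adaptor gene, one of 5.09. Cybb, the catalytic subunit of the phagocyte oxidase, had a log2 ratio of 5.07. Aoah, a lipase that inactivates bacterial endotoxin, and Cd36, a fatty acid and scavenger receptor, both had a log2 ratio of 5.04. Clec12a, an inhibitory lectin receptor gene, had a log2 ratio of 4.89, and Lilr4b, an immunoglobulin-like receptor gene, one of 4.80. Cd209f, a gene of the DC-SIGN family of lectins, had one of 4.64. The remaining 3 of the 15 leading genes were H2-Aa, H2-Eb1 and H2-Ab1, taken up below.

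**Figure D2:**
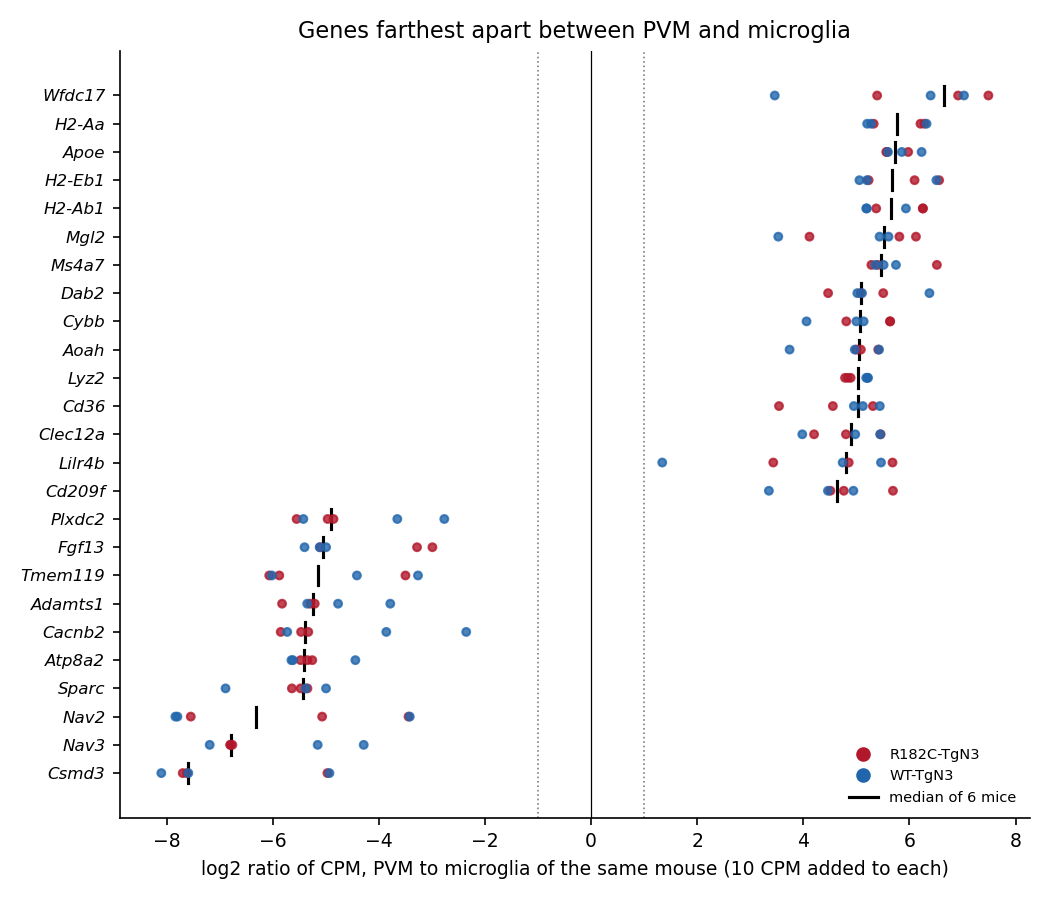
Log2 ratio of CPM between PVMs and microglia of the same mouse (10 CPM added to each) for the 15 genes with the highest and the 10 with the lowest median, with 1 point per mouse for 6 mice coloured by genotype and a bar for the median. The medians run from 6.66 for Wfdc17 to -7.60 for Csmd3, and points of both genotypes lie together.

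Microglial genes were low or missing in the PVMs. Of 20 microglial genes listed, 14 were at least 2-fold lower in every mouse and none higher, with a median log2 ratio of -3.15. Tmem119, a surface marker of microglia, was at 0 to 52.7 CPM in PVMs and at 487 to 670 CPM in microglia, a log2 ratio of -5.15. Sall1, a transcription factor gene of microglial identity, had no UMI in any PVM (0 of 101 cells at 2000 UMIs, which allows up to 2.97% of cells with a UMI) and was seen in 32.7% of microglia. Since most microglia also lacked a UMI at this depth, the limit does not bound the share of PVMs that express the gene. Sparc, a matrix-binding protein gene, had a log2 ratio of -5.43. The lowest ratios of all genes were those of Csmd3 (-7.60), Nav3 (-6.78) and Nav2 (-6.31), followed by Sparc, Atp8a2 (-5.41), Cacnb2 (-5.40), Adamts1 (-5.25), Tmem119, Fgf13 (-5.05) and Plxdc2 (-4.91). At the depth of the PVM sums, the size of such low ratios depends on the 10 CPM added.

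Genes known for border macrophages but not used in the gate were mostly higher in PVMs. Of 30 such genes, 19 were at least 2-fold higher in every mouse and none lower, with a median log2 ratio of 2.79. Folr2, a folate receptor gene, had a log2 ratio of 3.47 and was at 44.0 to 204 CPM in the 11 mice, with at most 3.06 CPM in microglia. Stab1, a scavenger receptor gene, had a log2 ratio of 2.75 with 457 to 1238 CPM. Maf, a transcription factor gene of resident macrophages, had the third lowest ratio of this list, at 1.32. These genes were expressed by the same cells from which the gate was built, so their level is a property of the selected cells.

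More uptake receptors than other immune receptors stood above the microglial level. Of 20 scavenger and uptake receptor genes, 17 could be compared and 10 were at least 2-fold higher in every mouse, with a median of 2.47. The lowest of them was Mertk, a receptor for apoptotic cells, at -1.45, with 98.0 to 631 CPM in PVMs and 850 to 1240 CPM in microglia. None of 6 Fc receptor genes and none of 12 MHC class I genes was 2-fold apart in every mouse, with medians of 0.53 and 0.47. Of 20 cytokine and growth factor receptors compared, 1 was higher, with a median of -0.17. Csf1r, the survival receptor of macrophages, was at 594 to 1415 CPM in PVMs and 1225 to 1452 CPM in microglia (log2 ratio -0.51).

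Secreted factors set PVMs apart by a few members. Of 12 chemokines compared 4 were higher, with a median log2 ratio of 1.4. Ccl8 had a log2 ratio of 4.45 but was at 0 CPM in R182C-TgN3 5 and WT-TgN3 1 and at 1035 CPM in WT-TgN3 5. Ccl7, a monocyte chemoattractant, had a log2 ratio of 4.42 with 150 to 2470 CPM in PVMs, and Ccl24, an eosinophil chemoattractant, one of 3.96 with 52.7 to 394 CPM. Ccl3 (-0.65) and Ccl4 (-1.29), which attract other leukocytes, were not higher in PVMs of any of the 11 mice. Of 13 cytokines and growth factors compared, 2 were higher and 2 lower. Igf1, a growth factor gene, had a log2 ratio of 3.96 with 141 to 375 CPM in PVMs and 0.244 to 13.4 CPM in microglia. Il1a, an inflammatory cytokine gene, was at 0 to 68.1 CPM in PVMs and 201 to 508 CPM in microglia (-4.89), and Pdgfb, a growth factor for mural cells, had a log2 ratio of -1.74.

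Complement, iron, lipid and lysosome genes are given beside the 1.75% of all genes that were 2-fold higher in every mouse. Of 11 complement genes compared 1 was higher, C4b with a log2 ratio of 3.52, whereas C1qa (0.19), C1qb (0.05) and C1qc (0.06) were near their microglial level. Of 11 iron and haem genes 1 was higher (median 0.95), Blvrb, a biliverdin reductase gene, at 2.84. Of 12 lipid genes 3 were higher (median 0.77), which were Apoe, Cd36 and Plin2, a lipid droplet gene, at 2.31. Of 20 lysosomal genes 2 were higher (median -0.03), and the proteases Ctsc (1.63) and Ctsb (1.47) were the highest.

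Genes of disease-associated microglia (DAM), a microglial state described in models of neurodegeneration, were split. Of 19 compared, 4 were higher in PVMs and 2 lower, with a median of 0.38. Apoe, Clec7a (2.54) and Axl (2.28) were highest, and Cd9 (-3.41) and Csf1 (-3.18) lowest. Clec7a, which encodes the beta-glucan receptor Dectin-1, was at 173, 294, 66.0, 250, 68.1 and 131 CPM in R182C-TgN3 1 to 6 and at 88.5, 123, 342, 141 and 485 CPM in WT-TgN3 1 to 5. In microglia it was at 11.7 to 39.6 CPM. PVMs were above microglia in 11 of 11 mice, and the genotypes overlapped.

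Interferon response genes were higher in PVMs for 5 of 15 compared (median 1.01), with Ifi27l2a (3.12) and Ifi204 (2.91) the highest. Bst2, an antiviral membrane protein gene, was at 448 to 849 CPM in PVMs and 81.9 to 127 CPM in microglia (2.24). Of 16 matrix and matrix protease genes 2 were higher and 4 lower (median -0.88). Of 21 transcription factors of macrophages 1 was higher, Tfec (2.21), and 3 lower, Sall1 (-4.37), Sall3 (-4.00) and Id3 (median of the list -0.52). Id3 had a median of 89.3 CPM in microglia and 875 CPM in endothelial cells, which the microglial gate did not limit. The 74 nuclear genes of oxidative phosphorylation had no member 2-fold apart in every mouse and a median of 0.33. Proliferation genes gave 16 UMIs over all 120 PVMs, with 2 of 6 at 0.

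Of the Notch pathway, which CADASIL affects through NOTCH3, 11 of 20 genes could be compared, with 1 higher, 1 lower and a median of -0.50. Rbpj, which encodes the transcription factor through which Notch receptors act, was higher, with 531 to 1771 CPM in PVMs, 110 to 164 CPM in microglia and a log2 ratio of 2.78. Hes1, a Notch target gene, was lower (-2.93), with 0 to 26.3 CPM in PVMs and 40.6 to 96.7 CPM in microglia. Its median in endothelial cells was 285 CPM, and whether carried-over endothelial transcripts raised the microglial level was not tested. Human NOTCH3 gave 7 UMIs in PVMs of 3 mice and mouse Notch3 gave 16 UMIs in PVMs of 4 mice. At 2000 UMIs NOTCH3 was seen in 1.98% of PVMs, in 0.265% of microglia and in 0.913% of endothelial cells. With 2 PVMs behind that share it was not read as expression. The highest levels of NOTCH3 (125 CPM) and of Notch3 (300 CPM) were both in R182C-TgN3 4, and each had a median of 0 CPM over the 11 mice. The highest sum of mural markers, 1399 CPM, was in the same mouse. Whether the NOTCH3 and Notch3 UMIs came from mural cells was not tested.

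The study named Polg2 and Nfe2l2 among the genes of a microglial subset, and Milr1 was examined beside them. Polg2, a subunit of the mitochondrial DNA polymerase, gave 13 UMIs in PVMs, with 0 to 66.0 CPM per mouse against 21.8 to 51.0 CPM in microglia. Milr1, an inhibitory receptor gene of mast cells and other myeloid cells, gave 45 UMIs, with 0 to 354 CPM in PVMs and a higher level than in microglia in 9 of 11 mice. Nfe2l2, which encodes the antioxidant regulator NRF2, was at 177 to 374 CPM in PVMs and 319 to 474 CPM in microglia, and was higher in PVMs in 1 of 11 mice. Of these and the other genes of mitochondrial DNA maintenance, 6 could be compared and none was 2-fold apart in every mouse.

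PVMs fell into cells with and without MHC class II transcripts. Each cell was thinned to 2000 UMIs, which 101 of the 120 PVMs reached, and the UMIs of H2-Aa, H2-Ab1, H2-Eb1 and Cd74, the invariant chain, were summed. Of the 101 cells 55 had none, 2 had 1 or 2, 7 had 3 to 9 and 37 had at least 10, with 129 in the highest cell. Few cells therefore lay near the threshold of 3 UMIs that is used below. Over the 11 mice H2-Aa was at 394 to 3278 CPM in PVMs and at 1.18 to 65.4 CPM in microglia. At 2000 UMIs it was seen in 38.6% of PVMs, 0.661% of microglia and 0.642% of endothelial cells. Of 8 class II genes compared, 4 were at least 2-fold higher in PVMs in every mouse, with a median log2 ratio of 3.68. H2-Aa (5.77), H2-Eb1 (5.66) and H2-Ab1 (5.65) were highest, and H2-DMa and H2-DMb1, which load peptides, and H2-Ob were the lowest.

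No difference in the share of class II positive PVMs was detected between genotypes. In R182C-TgN3 1 to 6 it was 9 of 16 cells (56.2%), 9 of 14 (64.3%), 3 of 11 (27.3%), 2 of 5, 1 of 3 and 1 of 9 (11.1%). In WT-TgN3 1 to 5 it was 1 of 3 cells, 8 of 16 (50.0%), 4 of 9 (44.4%), 4 of 9 (44.4%) and 2 of 6 (33.3%). The CADASIL mice held both the highest and the lowest share. Among mice with at least 10 PVMs at this depth, R182C-TgN3 1, 2 and 3 had 49.3% ± 19.5 (SD, n = 3) and WT-TgN3 2 had 50.0% (n = 1), a comparison that cannot reach a p under 0.25 (exact permutation test, p = 1.0). Over all 11 mice the means were 38.7% ± 19.4 (SD, n = 6) and 41.1% ± 7.45 (SD, n = 5), and the gap of -2.40 points did not pass (exact permutation p = 0.810). Counted without thinning it was -4.44 points (exact permutation p = 0.677). The intervals are wide, from 29.9% to 80.2% in R182C-TgN3 1 alone (95% exact), so that a difference of moderate size was not detectable at this depth.

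**Figure D3:**
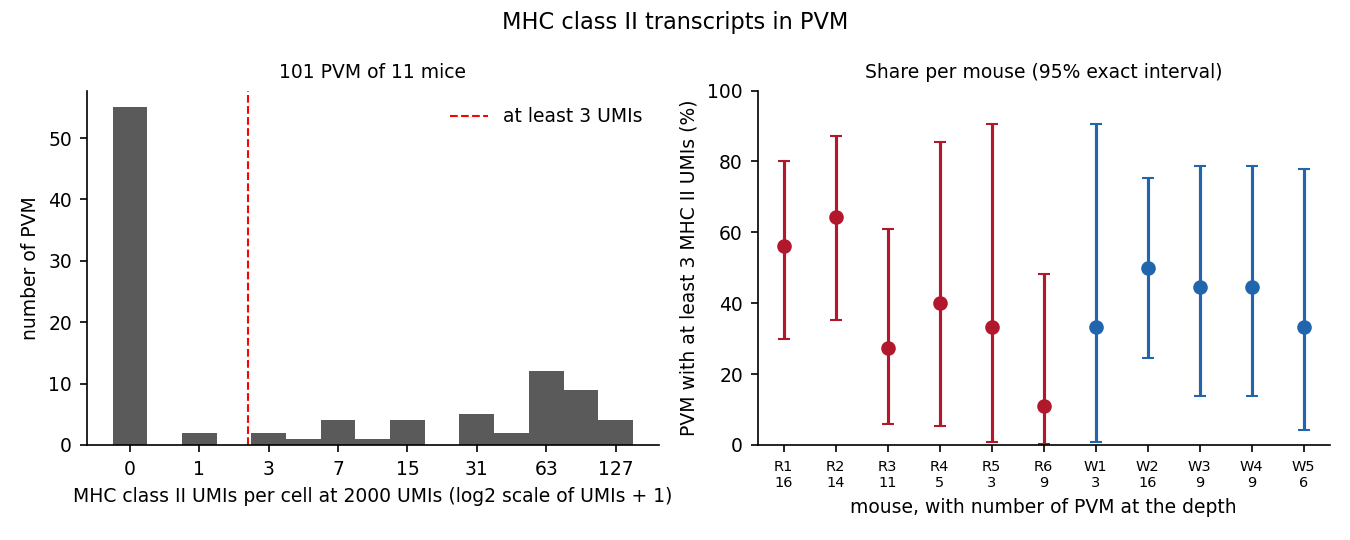
Left, number of PVMs by their UMIs of H2-Aa, H2-Ab1, H2-Eb1 and Cd74 at 2000 UMIs per cell, on a log2 scale of UMIs + 1, with the threshold of 3 UMIs as a dashed line; right, percentage of PVMs at or above it in each mouse with 95% exact intervals and the number of cells under each name. Of 101 cells, 55 lie at 0 and 37 at 10 or more, and the mice range from 11.1% to 64.3%.

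The 44 class II positive and 57 negative cells differed in other genes too, which were chosen after their values had been seen and are described with no test. The comparison pooled 229339 and 263530 UMIs, with medians of 5079 and 4005 UMIs per cell, and 6 mice had at least 3 cells of each state. Ciita, the master activator of class II genes (35 UMIs), and Ccr2, the receptor that brings monocytes from blood (57 UMIs in 15 cells), were found in positive cells and gave no UMI in negative ones. Against the floor of 3 UMIs over the pooled negative cells these were levels at least 13.4-fold higher for Ciita and at least 21.8-fold higher for Ccr2. Ccr2 was higher in the positive cells of 6 of 6 mice and Ciita in 5 of 6. H2-DMa (105 against 11 UMIs) and H2-DMb1 (81 against 6 UMIs) were also on the positive side, each with a log2 ratio of 2.47 with 50 CPM added.

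Further genes of the positive cells included Cd52, a leukocyte surface protein gene, with 123 against 24 UMIs (log2 ratio 2.06, 6 of 6 mice). Clec12a had 137 against 45 UMIs (1.55, 5 of 6 mice), Axl had 37 against 12 UMIs (1.15, 4 of 6 mice) and Klra2 had 52 against 4 UMIs (2.09, 6 of 6 mice). Flt3, a marker of dendritic cells, and Ly6c2, a marker of inflammatory monocytes, gave 0 UMIs in either state. Other members of the same lists were detected in PVMs, among them Ccr2, Cd209a (93 UMIs) and Zbtb46 (0 to 52.6 CPM per mouse). The split of Cd209a between the states is not reported here, and these values do not settle the identity of the positive cells.

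The list of 20 scavenger and uptake receptors had 15 members with at least 20 UMIs in the 2 states together. Over all 3903 genes of that depth the median log2 ratio was -0.03, with 2079 lower in positive cells and 1824 higher. Of the 15 members 11 were lower in positive cells and 4 higher, with a median log2 ratio of -0.72. The higher members were Axl, Mgl2 (112 against 74 UMIs, 0.70, 4 of 6 mice), Cd36 (0.19, 5 of 6 mice) and Lrp1 (0.17, 1 of 6 mice). The genes that follow were picked for their values and belong to several functions. Lyve1 had 35 UMIs in 13 negative cells and 6 UMIs in 2 positive cells (log2 ratio of positive to negative -1.26, higher in positive cells in 1 of 6 mice). Slc40a1, the iron exporter ferroportin, had 52 against 10 UMIs (-1.40, 0 of 6 mice), Dab2 was at 1996 against 924 CPM (-1.07, 0 of 6 mice) and Stab1 284 against 121 UMIs (-0.97, 0 of 6 mice). Ccl24 had 75 against 20 UMIs (-1.29) and Cd209f 120 against 36 UMIs (-1.29), each higher in the positive cells of 1 of 6 mice. Ptgds, a prostaglandin synthase gene, had 121 UMIs in 18 negative cells and 9 UMIs in 2 positive cells (-2.51, 0 of 6 mice). Ptgds is strong in leptomeningeal and choroid plexus cells, and whether its UMIs came from the PVMs themselves was not tested.

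Every cell was chosen for at least 3 of the gate genes, so their presence in both states was fixed by the gate. Mrc1 was detected in all 44 positive and all 57 negative cells, at 1583 and 2421 CPM. Pf4 was detected in 43 positive and 56 negative cells, at 1504 and 2026 CPM, and F13a1 in 42 and 56 cells, at 1020 and 1901 CPM. Apoe was at 28791 CPM in positive and 42303 CPM in negative cells.

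Stress and mitochondrial transcripts also moved with the class II state. Of the 3903 genes with at least 20 UMIs in the 2 states together, 1824 were higher in positive cells and 2079 lower. Of the 3903 genes 77 were higher in 6 of 6 mice. Of the 22 dissociation stress genes 21 were higher in positive cells, with a median log2 ratio of 0.57, and 7 of them were higher in 6 of 6 mice. Among those 7 were Klf4 (1.21), Klf2 (1.19), Jund (1.02) and Fos (1.02). The list summed to 37639 CPM in positive and 22847 CPM in negative cells and was higher in positive cells in 6 of 6 mice. All 13 genes of mitochondrial DNA were lower in positive cells, with a median of -0.63, and their sum was 23267 against 36076 CPM, lower in 6 of 6 mice. The median mitochondrial share was 2.08% in positive and 3.30% in negative cells. The part of these differences in the gene differences between the states was not tested.

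**Figure D4:**
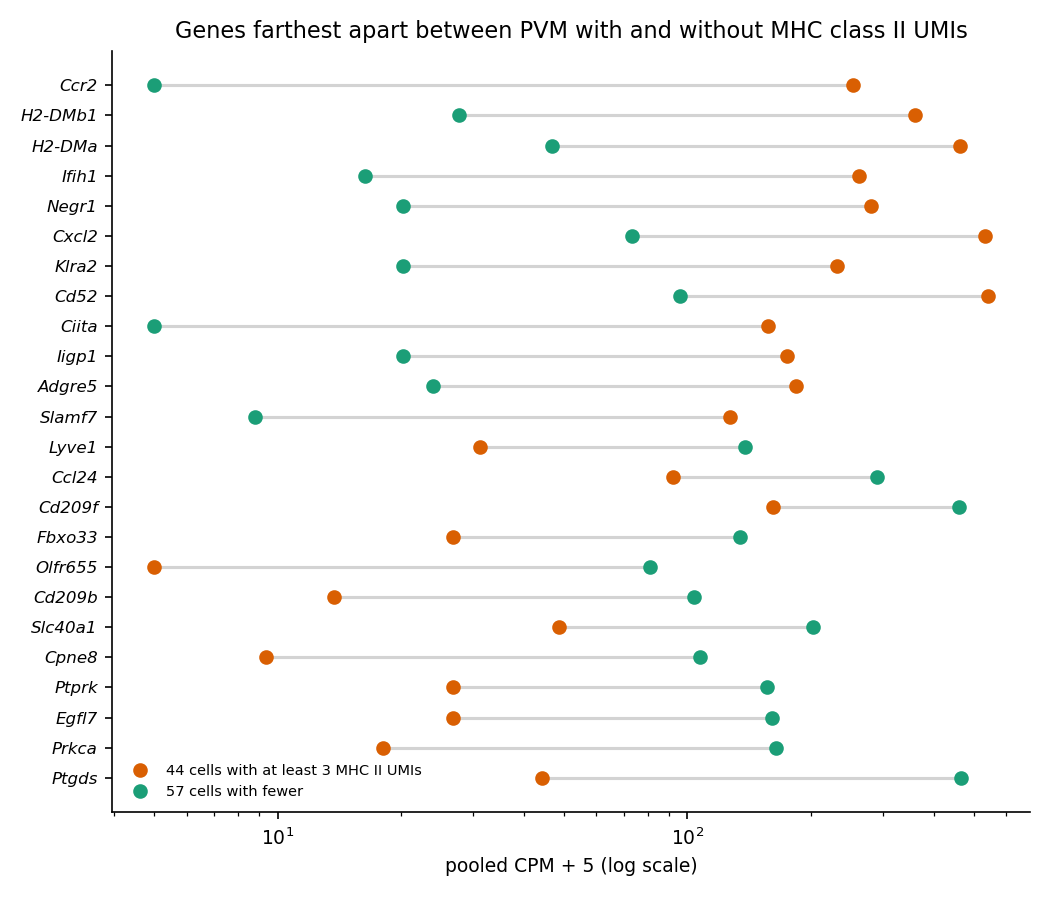
Pooled CPM + 5 on a log scale for the genes farthest apart between the 44 PVMs with at least 3 MHC class II UMIs and the 57 with fewer, at a depth of at least 2000 UMIs. Ccr2 and Ciita are at 249 and 153 CPM in the positive cells and at 0 in the negative cells, and Ptgds is at 39.2 against 459 CPM.

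Between CADASIL and control mice no PVM gene passed the test. UMIs were summed per mouse for the 6 mice with at least 10 PVMs, and 0 of 904 genes tested (0.0%) had an adjusted p under 0.05 in edgeR's quasi-likelihood test, while 52 genes had an unadjusted p under that value. DESeq2 called 2 genes on the same sums, Hspa1b and Klf2. With all 11 mice 0 of 516 genes passed in edgeR and 0 in DESeq2, with 7 genes at an unadjusted p under 0.05 in each. R182C-TgN3 2 and WT-TgN3 4 were males of 9 months and WT-TgN3 2 a male of 6 months, and batch 1 alone held both genotypes among the 6 mice. Genotype and age are therefore largely confounded in this fit, since the 3 CADASIL mice were of 9 months and 2 of the 3 control mice of 6 months.

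The genes nearest the threshold on the higher side included a heat shock gene and 2 Krüppel-like factors. Hspa1b, an inducible heat shock protein gene (chromosome 17, 34956436 to 34959238), was at 1308, 697 and 1166 CPM in R182C-TgN3 1, 2 and 3 and at 353, 369 and 94.0 CPM in WT-TgN3 2, 3 and 4. The groups did not overlap, with a log2 difference of 1.96 ± 0.438 (SE) that did not pass (edgeR, adjusted p = 0.162). Klf2, a transcription factor gene induced by shear and by tissue handling, was at 2727, 3953 and 1738 CPM in the CADASIL mice and at 997, 1053 and 893 CPM in the control mice (log2 difference 1.49, edgeR adjusted p = 0.162). Over all 11 mice Klf2 differed by 0.46, and WT-TgN3 5 had 3008 CPM. Chd4 (1.75), Klf4 (1.51) and Marcksl1 (1.51) had the same adjusted p. The lowest p-values on the lower side were those of Arhgef3 (-1.37), Ptgds (-1.81), Tmem50a (-1.21), Gpr65 (-1.28) and Ucp2 (-0.999), with an edgeR adjusted p of 0.695.

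A list of 22 genes that tissue dissociation is known to induce was examined next, since Hspa1b, Klf2 and Klf4 belong to it. It holds heat shock and immediate early genes. Of 21 tested genes all 21 had a positive log2 difference and 9 an unadjusted p under 0.05, with 0 called and a median of 0.71, against 0.00 over all 904 genes. The summed level of the list was at 40134, 41457 and 27041 CPM in R182C-TgN3 1, 2 and 3 and at 19318, 23932 and 17392 CPM in WT-TgN3 2, 3 and 4. Among the mice with fewer PVMs it was at 12042, 22890 and 27095 CPM in R182C-TgN3 4, 5 and 6 and at 23618 and 37618 CPM in WT-TgN3 1 and 5, so that the genotypes overlapped over 11 mice. There 17 of the 21 genes were positive, with a median of 0.21. In microglia of the same 6 mice all 21 genes were positive with a median of 0.25, and in endothelial cells all 21 with a median of 0.36, so the direction was shared by cell types of the same libraries. In microglia of all 11 mice 11 of 21 were positive. The part of tissue handling in these differences was not tested.

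**Figure D5:**
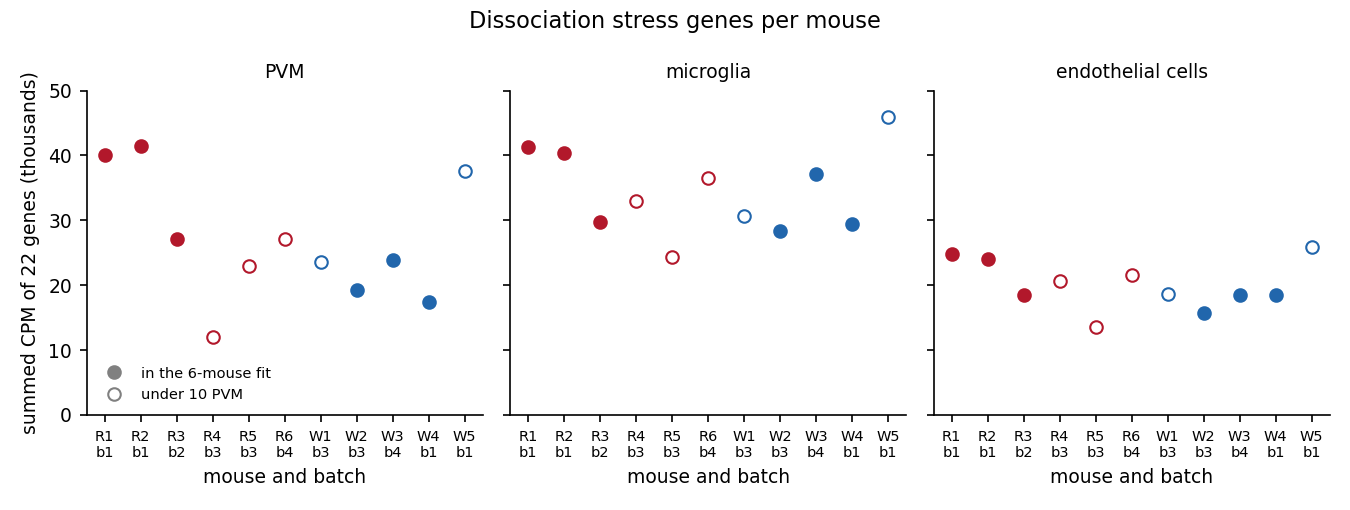
Summed CPM (in units of 1000) of 22 dissociation stress genes in PVMs, microglia and endothelial cells of each mouse, with the batch under its name; filled points are the 6 mice of the genotype fit and open points the mice with fewer than 10 PVMs. In PVMs the filled CADASIL mice lie at 27041 to 41457 CPM and the filled control mice at 17392 to 23932 CPM, and the open points of the genotypes overlap.

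The other lists held no called gene between genotypes, and their medians are given as a description. Of all 904 genes tested 454 had a positive log2 difference, with a median of 0.0006. Of 20 genes of border macrophages tested 6 had a positive log2 difference (median -0.19), and of 6 class II genes 5 did (median 0.10). Of 6 lipid genes 1 was positive (median -0.59), and of 7 chemokines 3 were (median -0.37). None of 8 cytokine and growth factor receptors was positive (median -0.43), and of 20 nuclear genes of oxidative phosphorylation 3 were (median -0.31). Apoe differed by 0.02 ± 0.211 (SE), Nfe2l2 by 0.49 ± 0.362 (SE) and Clec7a by -0.00 ± 0.602 (SE) on the log2 scale, with edgeR adjusted p-values of 0.989, 0.935 and 1.0.

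The genotype difference was also compared between PVMs and microglia of the same 6 mice, with the mouse as a block. Of 10165 genes 1 (0.00984%) passed, and 363 had an unadjusted p under 0.05. The gene was Cxcl2, a neutrophil chemoattractant (chromosome 5, 90903871 to 90905938), with a log2 difference of 3.35 ± 0.652 (SE, edgeR adjusted p = 0.0028) toward CADASIL mice in PVMs relative to microglia. In PVMs Cxcl2 was at 975, 501 and 22.0 CPM in R182C-TgN3 1, 2 and 3 and at 0 CPM in R182C-TgN3 4, 5 and 6. In WT-TgN3 1 to 5 it was at 0, 15.3, 158, 0 and 194 CPM. Microglia had 5.14 to 18.6 CPM in every mouse. The value rested on few cells, since 139 UMIs were found in 12 PVMs, with 59 of the 79 UMIs of R182C-TgN3 1 in 1 cell and 36 of the 46 UMIs of R182C-TgN3 2 in 1 cell. The call was lost without R182C-TgN3 1, R182C-TgN3 2 or WT-TgN3 4, in DESeq2, with all 11 mice, with up to 20% mitochondrial UMIs and with a marker sum of at least 3.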

How the data were processed

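Single-cell RNA sequencing of CD31-isolated microvascular cells was analysed for all 11 mice, with 1 library per mouse as the replicate. According to the labels and the study's methods, Cell Ranger 7.0.0 was run by the authors on mm10 with human NOTCH3 added, and they deposited UMI counts per gene (32287 features) and called barcode without normalization. Libraries held 17550806 to 64215050 UMIs.

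The gates, the lists and the comparisons were chosen with earlier results of these data known. Counts of gated cells were summed per mouse and, for mice with at least 10 PVMs, tested with edgeR 4.0.16 (TMM, filterByExpr, quasi-likelihood test, Benjamini-Hochberg adjustment), without ribosomal, mitochondrial, Gm and Rik genes. Shares were compared by exact permutation of mice, and correlations by 100000 permutations. Shares of cells with a UMI were also counted after thinning cells to 2000 UMIs. Doublets were scored with the Scrublet method of scanpy 1.11.5 and kept in the main analysis. The genes named are the gate genes, up to 3 highest and 3 lowest of each list, the 15 highest and 10 lowest ratios, the 5 lowest p-values in each direction, the called genes and genes of the study. Others were chosen after their values were seen. A few genes of the lists are not reported here.

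Alternatives were other gates and depths, doublets removed, DESeq2 1.42.0, edgeR with DESeq2 size factors, all genes without the low-count filter, other pseudocounts, batch or sex as a covariate, replicate blocks and each mouse left out. The scripts ran in Python 3.11.15 with scipy 1.17.1, numpy 2.4.6, matplotlib 3.10.9 and pandas 2.3.3. Gene positions are from GENCODE on mm10.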

Additional observations from a re-analysis of the deposited data

Results flagged for a closer look

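R182C-TgN3 2 lay apart from the other CADASIL mice in its number of PVMs. Its share of kept cells was 0.362%, and the gap to the next mouse was 0.672 of the range of the 6 CADASIL mice, above the 95% critical value of 0.625 of Dixon's test. It also had 1.72 PVMs per 100 microglia, with a gap of 0.718 of the range. The values rest on the same 15 cells and are not independent, and chance marks about 1 in 20 groups in this way. The library held 42317151 UMIs, within the range of the others, and no reason for its position was tested.

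Cxcl2 was marked because its genotype difference in PVMs differed from that in microglia, by 3.35 on the log2 scale, in a test of the difference itself (edgeR, adjusted p = 0.0028). It was detected in 12 of 120 PVMs, and of its 139 UMIs 59 came from 1 cell of R182C-TgN3 1 and 36 from 1 cell of R182C-TgN3 2.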

How the results depend on the processing

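The genotype difference in PVM share was near 0 and changed sign with small changes of the gate, at no p under 0.05. It was 0.0112 points with up to 20% mitochondrial UMIs, 0.00901 with a marker sum of at least 3, 0.0183 with at least 8, 0.00275 with at most 1 endothelial UMI, 0.00088 with at least 2 of the markers and 0.0393 at 9 months alone, while it was -0.0436 at 6 months alone. Leaving out 1 mouse gave -0.0333 to 0.0247. The value was 0.00331 both within batches and with the replicate block of 5 pairs, where p was 0.938 by the exact permutation test. The difference per 100 microglia stayed negative and not significant under every alternative run, but its size rested on the 2 control males, WT-TgN3 2 and WT-TgN3 4. It went from -0.382 to -0.00368 without WT-TgN3 2 and to -0.126 without WT-TgN3 4, and to -0.606 without WT-TgN3 5, -0.590 without WT-TgN3 1 and -0.584 without WT-TgN3 3. It was -0.715 with up to 3 P2ry12 UMIs and -0.226 with a marker sum of at least 8. The age difference stayed positive and not significant, with 0.0277 points without R182C-TgN3 2, 0.0386 with a marker sum of at least 8, 0.0977 in R182C-TgN3 mice and 0.0148 in WT-TgN3 mice. The sex difference kept its direction but lost p under 0.05 with up to 3 P2ry12 UMIs (0.131 points) and within batches (0.120 points), and ran from 0.0806 to 0.160 without 1 mouse. The 3 correlations kept their direction in the alternatives run.

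The genotype difference in class II positive PVMs was 4.27 points with up to 20% mitochondrial UMIs, 3.07 with a marker sum of at least 3, 14.2 with up to 3 P2ry12 UMIs, 7.24 with at least 2 markers and 2.59 at 1000 UMIs, none with an exact permutation p under 0.05, and -8.24 to 10.3 without 1 mouse. The number of genes 2-fold apart from microglia in every mouse, 431, became 658 with a marker sum of at least 8, where 4 mice were left, 279 with at least 2 markers, 206 with 50 CPM added, 255 at a mean of at least 100 CPM, 1783 by the medians over mice, and 464 to 527 without 1 mouse. Genes called between genotypes were 2 in DESeq2, 10 without a filter on low counts and 0 to 6 without 1 mouse (6 without R182C-TgN3 3, 2 without R182C-TgN3 2 and 1, Ptgds, without R182C-TgN3 1), with 0 in all other fits. Genes whose genotype difference differed between PVMs and microglia were 0 at 1000 genes per barcode, in DESeq2 and with 11 mice, 2 with at most 1 endothelial UMI, 2 without doublets, 4 with up to 3 P2ry12 UMIs, 25 with at least 2 markers, 0 to 2 without 1 mouse, and 0 with the replicate block of 5 pairs. The cause of these changes was not tested, apart from the change in cells and mice that each setting makes.

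Same-numbered mice of the 2 genotypes and of the same age shared a batch, but their PVM sums showed no closer likeness. The deviations of same-numbered mice correlated with r from -0.235 to 0.0396 across 1000 genes, and 0 of 10 mice correlated best with their own number. Sums of 5 to 20 PVMs carry large counting error, so this check cannot show that the mice were unpaired. The block left 0 genes called between genotypes and gave -0.115 points for the class II share. The block of the gene tests was run with at least 5 PVMs per mouse, a change made after the data were seen, because the 6 mice held 1 pair. At most 5% mitochondrial UMIs, a marker sum of at least 8 and at least 20 PVMs per mouse left fewer than 2 mice of a genotype for the gene tests. The class II share had no value within batches or at a single age with the 4 mice of its main comparison. Few PVMs per mouse, 5 to 20, limit every value here.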
